A study of Mus musculus with 2 samples.

Results

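Klf4 occupancy was examined at 9 loci that mark macrophages and other leukocytes (Spi1, Csf1r, Ptprc, Cx3cr1, Cd68, Lyz2, Itgam, Mrc1 and Cd14) in the mesenteric microvasculature of mice. A peak belonged to a locus when its midpoint fell in a fixed window around the gene in the mouse genome build mm9, and 6 of 7313 peaks did so. The windows were 15 to 150 kb long and covered 0.61 Mb together. Chromatin immunoprecipitation with an anti-Klf4 antibody, followed by sequencing (ChIP-seq), had been run on 1 library per genotype in C57BL/6 mice on chow diet, at baseline. The first genotype was eYFP+/+ Klf4delta/delta, labelled as a deletion in smooth muscle cells (SMC), and the second was eYFP+/+ Klf4WT/WT. Both carried the eYFP allele, and both went through the same steps of freezing and grinding mesenteric arcades, isolating the stromal vascular fraction and fixing its cells. The sources used here do not give the promoter that drives the deletion, the age and sex of the animals or the number of animals per library. The deletion is labelled for SMC only, so leukocytes of the Klf4delta/delta tissue are not described as lacking Klf4.

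The 7313 peaks form 1 list that names no genotype. Klf4delta/delta and Klf4WT/WT tissue were therefore not compared, and no value below has a replicate error. The score of a peak is the authors' own value, and it is used here only to describe and rank peaks within the list. The labels name macrophages among the mixed cells of the tissue, together with smooth muscle, epithelial and other cells. A peak at a leukocyte locus is thus not tied to leukocytes, and the presence of these cells could not be checked, since a peak list holds no RNA levels.

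Klf4 is a zinc-finger transcription factor of the Krüppel-like family that binds GC-rich and CACCC-type elements. In mice it takes part in the maturation of monocytes and in the alternative activation of macrophages, besides its roles in SMC and epithelia. Tissue macrophages depend on the ETS-family factor PU.1, encoded by Spi1, and on signals through the CSF-1 receptor, encoded by Csf1r. The other 7 genes encode surface or lysosomal proteins by which leukocytes are recognised.

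Klf4 peaks lay in 5 of the 9 windows and no peak was listed in the other 4. Spi1 had 2 peaks, and Csf1r, Cd68, Mrc1 and Cd14 had 1 each. Ptprc, Cx3cr1, Lyz2 and Itgam had none. As background, the placed chromosomes were divided into consecutive windows of each length. At least 1 peak midpoint was held by 3.80% of windows of 15 kb (the length used for Cd68), 7.20% of 30 kb (Lyz2 and Cd14), 11.2% of 50 kb (Csf1r and Cx3cr1) and 13.0% of 60 kb (Spi1). The share was 17.6% at 90 kb (Itgam), 23.5% at 135 kb (Mrc1) and 25.5% at 150 kb (Ptprc). Of the 9 marker windows 5 held a peak, against 1.2 when these shares are summed over the 9 loci. The background includes sequence without genes, which the marker windows do not resemble.

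**Figure D1:**
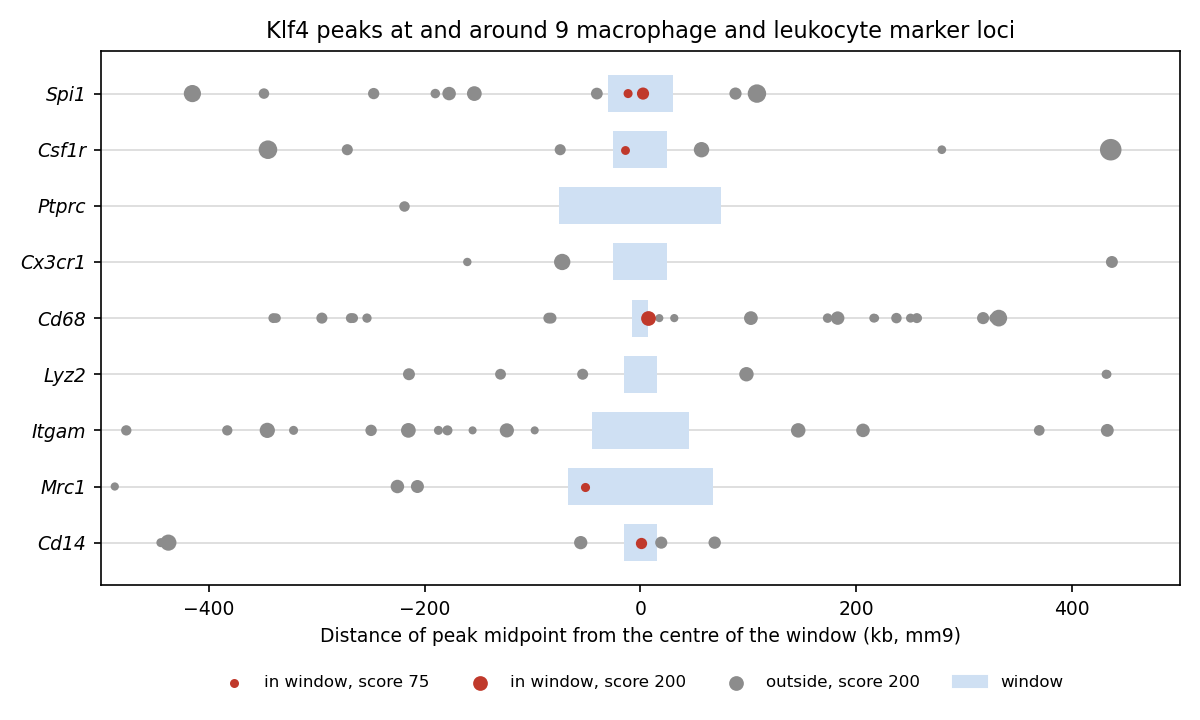
Klf4 peaks around each of the 9 marker loci, by distance of the peak midpoint from the centre of the window in kb. Shaded boxes are the windows, circles are peaks with an area proportional to the authors' score, and red circles are the 6 peaks inside a window. Peaks lie inside the windows of Spi1 (2), Csf1r, Cd68, Mrc1 and Cd14 (1 each), and the windows of Ptprc, Cx3cr1, Lyz2 and Itgam are empty.

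The marker windows held more peaks per Mb than the rest of the list's span, but not detectably more than their own surroundings. Their 6 peaks correspond to 9.84 per Mb (exact Poisson 95% interval 3.61 to 21.4, counting error only). Outside the windows, 7292 placed peaks over 2548 Mb gave 2.86 per Mb. The ratio was 3.44 (exact Clopper-Pearson 95% interval 1.26 to 7.49). The loci were chosen with earlier results of these data known, so this interval is not a test of enrichment. Within 500 kb on each side of the windows, 75 peaks over 9.0 Mb gave 8.33 per Mb, and the ratio of the windows to these flanks was 1.18 (0.42 to 2.69). The second interval includes 1, so no difference from the neighbouring sequence was detectable with 6 peaks. Each locus gave the same length of flank, but the windows were 15 to 150 kb long. The densities of windows and flanks therefore weight the loci differently, and a ratio weighted by window length was not computed. Peaks close to each other are not independent, which makes both intervals too narrow.

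Surroundings differed widely between the loci. The flanks of Cd68 held 22 peaks, those of Itgam 16 and those of Spi1 10. The flanks of Lyz2, Csf1r, Cd14 and Cx3cr1 held 7, 6, 5 and 4 peaks, in this order, and those of Mrc1 and Ptprc 3 and 2. The 5 windows with a peak had a median of 6 flanking peaks, against 5.5 for the 4 windows without one. Empty windows were thus found both in a peak-rich neighbourhood (Itgam) and in a peak-poor one (Ptprc).

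Windows of the same length laid end to end across the flanks held a peak more often than windows across the placed chromosomes at 8 of the 9 loci, the exception being Mrc1. The Itgam window had no peak, while 8 of 10 such windows around it held one (80.0%). Around Cd68 the share was 21.2% (14 of 66), around Spi1 43.8% (7 of 16) and around Csf1r 30.0% (6 of 20). Around Cd14 it was 12.5% (4 of 32), and around Mrc1 16.7% (1 of 6). The 5 marker windows with a peak stand against 2.68 when the shares in the flanks are summed over the 9 loci.

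**Figure D2:**
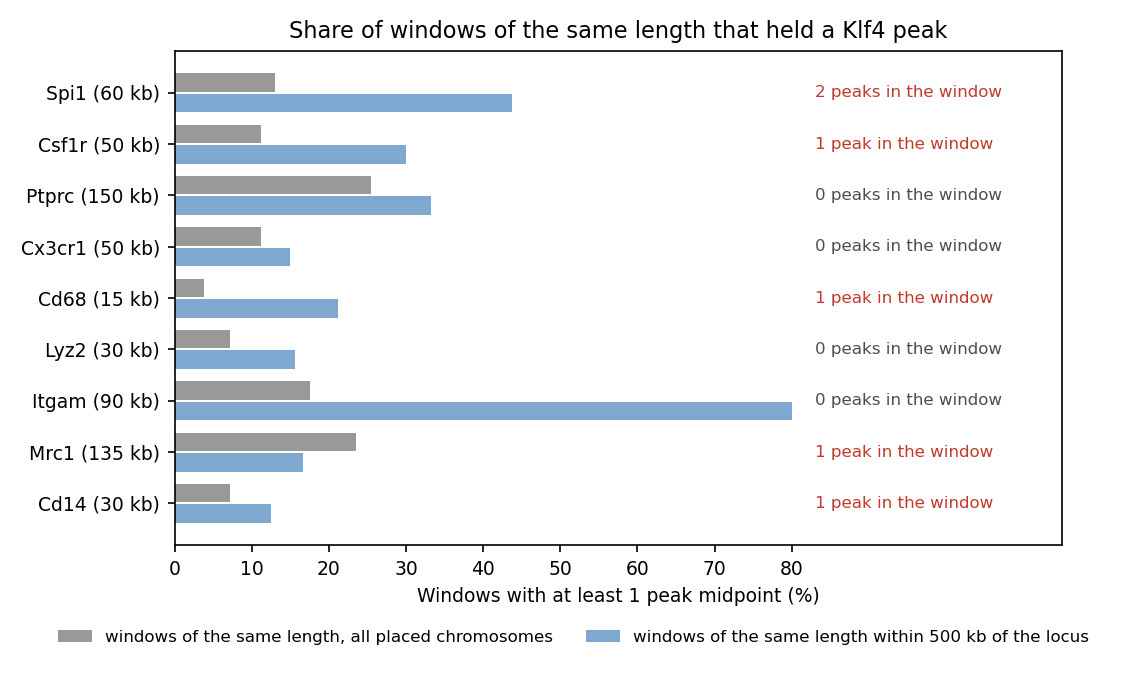
Percentage of windows with at least 1 peak midpoint, for windows of the same length as each locus, across all placed chromosomes (grey bars) and within 500 kb of the locus (blue bars). The number of peaks in each marker window is printed at the right. The Itgam window has no peak while 80.0% of the windows around it hold one, and at Mrc1 alone the local share (16.7%) is below the share over all chromosomes (23.5%).

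Of the regulators and receptors of the macrophage lineage, Spi1 was the locus with more than 1 peak. Spi1 encodes PU.1, which is needed for myeloid and B cell development. Its window spans 90905000 to 90965000 on chromosome 2, and 3.26% of 60 kb windows on the placed chromosomes held at least 2 peak midpoints. The share with at least 2 was not computed for the peak-richer flanks of Spi1. There 43.8% of such windows held at least 1, against 13.0% over the placed chromosomes. The first Spi1 peak, at 90923316 to 90923877, was 562 bp wide and had a score of 75.56, above 18.0% of all peaks. The second, at 90936942 to 90937951, was 1010 bp wide and had a score of 136.64, above 64.6% of all peaks. They were 13.1 kb apart and lay 18.6 and 32.4 kb into the window. Per kb of width their scores were nearly equal, at 134.4 and 135.3. The closest peak outside, 10.36 kb before the window, had a score of 128.16.

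Csf1r encodes the receptor for CSF-1, the growth factor on which most tissue macrophages depend. Its window, 61255000 to 61305000 on chromosome 18, held the lowest-scoring of the 6 peaks, at 61265518 to 61266667. That peak had a score of 72.87, above 14.8% of all peaks, but a width of 1150 bp, above 71.2% of them. The nearest peaks outside the window scored higher. The one 49.33 kb before it had a score of 113.61 and the one 31.66 kb after it 218.82. In the gene order of the mouse reference, Csf1r follows Pdgfrb, which encodes a receptor characteristic of pericytes and other mural cells, and precedes Hmgxb3.

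Cx3cr1, the receptor for fractalkine on monocytes, resident macrophages and microglia, had no peak. Its window, 119940000 to 119990000 on chromosome 9, lay in a peak-free stretch of 507.8 kb. The stretch was bounded 47.48 kb before the window by a peak with a score of 245.8, and 411.39 kb after it by one with a score of 67.8. Cx3cr1 lies between Xirp1, a gene of striated muscle, and Ccr8, another chemokine receptor gene.

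Among the genes for pattern recognition and endocytosis, Cd14 and Mrc1 each had 1 peak. Cd14 encodes the co-receptor that presents lipopolysaccharide to Toll-like receptor 4. In its window, 36870000 to 36900000 on chromosome 18, a peak at 36884659 to 36886370 had a score of 117.33 and a width of 1712 bp. It was the widest of the 6 and wider than 93.6% of all peaks, although its score exceeded that of only 53.6%. A further peak lay 4.35 kb past the window, with a score of 136.2, and 17.2 kb separated it from the Cd14 peak. The genes next to Cd14 in gene order were E230025N22Rik and Tmco6.

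Mrc1 encodes the mannose receptor CD206, a marker of resident and alternatively activated macrophages. Its peak, at 14151066 to 14151641 on chromosome 2, lay 16.35 kb into a window that spans 14135000 to 14270000. The peak had a score of 76.52 and a width of 576 bp, close to the values of the lower-scoring Spi1 peak. It was the most isolated of the 6, with the nearest other peak 154.0 kb before it. The median of all stretches between neighbouring peaks was 94.1 kb. That is an unlike measure, since the distance to the nearest peak is the shorter of the stretches on either side. No peak followed until 707.4 kb past the window. Mrc1 lies between Tmem236 and Slc39a12.

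Cd68 and Lyz2 encode lysosomal and secretory proteins of phagocytes, the glycoprotein CD68 (macrosialin) and lysozyme M. Cd68 had the highest-scoring peak of the 6, at 69484108 to 69485784 on chromosome 11. Its score of 200.79 ranked 1045 of 7313, and it was the member in the upper 25% of all scores. It was 1677 bp wide, which is wider than 93.1% of all peaks. Its midpoint lay 54.5 bp inside the end of the window, which spans 69470000 to 69485000, so the peak reached past the edge and its place among the members rests on where that edge was set. Just outside, 10.06 kb past the edge, a peak scored 60.46. Cd68 lies between Mpdu1 and Eif4a1, a ubiquitously used translation initiation factor gene. The peak lay at the end of the window, the side on which Eif4a1 follows Cd68 in gene order. Whether it is closer to Cd68 or to Eif4a1 was not determined, so it is not tied to Cd68 itself.

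Lyz2 had no peak in its window of 116700000 to 116730000 on chromosome 10. The nearest peaks lay 38.51 kb before it, with a score of 112.08, and 83.33 kb after it, with a score of 191.37. The next gene is its close relative Lyz1, which encodes the lysozyme of Paneth cells.

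The adhesion and signalling molecules of leukocytes had no peak. Ptprc encodes CD45, the receptor tyrosine phosphatase found on nearly all nucleated blood cells, and Itgam encodes CD11b, the integrin alpha chain of complement receptor 3. The Ptprc window, 139940000 to 140090000 on chromosome 1, was the longest of the 9 and lay in a peak-free stretch of 719.6 kb. Of the 7278 stretches between neighbouring peaks, 12.0% were at least this long. The Itgam window, 135190000 to 135280000 on chromosome 7, lay in a stretch of 243.3 kb, a length that 27.8% of stretches reached. The corresponding share was 16.0% for the stretch around Cx3cr1 and 38.7% for the stretch of 151.1 kb around Lyz2. All 4 stretches were longer than the median of 94.1 kb. A window can be empty only within a stretch longer than itself, so long stretches are favoured by the way these were chosen. Long stretches also cover more sequence, so any fixed locus falls in one more often than their share of all stretches. These shares and the median therefore do not show that the 4 stretches were unusually long for a fixed locus. The bounding peaks of the Itgam stretch had scores of 60.37 before and 193.69 after the window, and those of the Ptprc stretch 101.97 and 126.35.

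**Figure D3:**
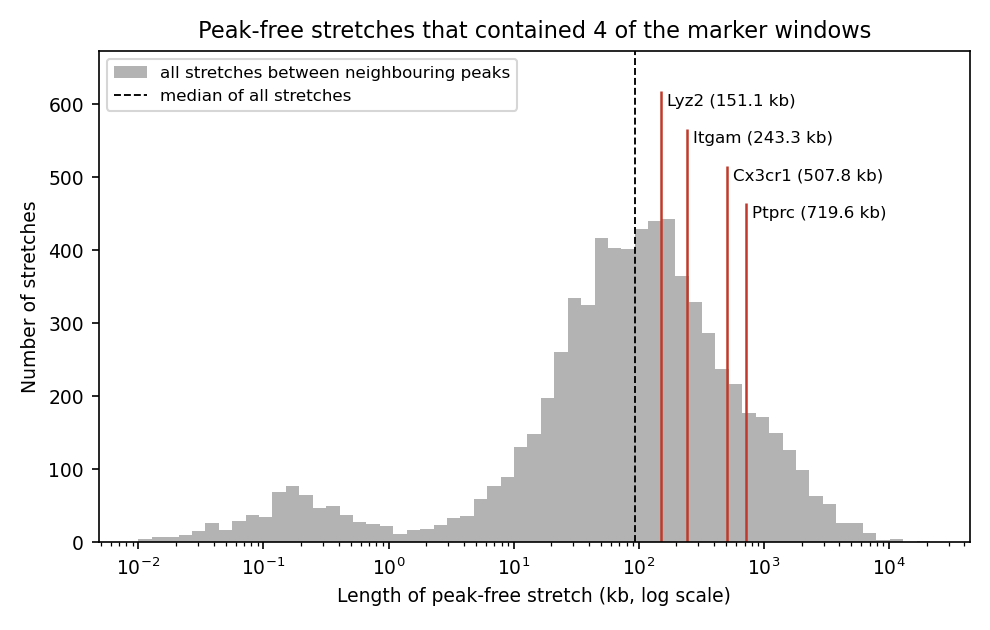
Lengths of all 7278 stretches between neighbouring Klf4 peaks (grey histogram, log scale in kb), with the stretches that contained the empty marker windows as red lines. All 4 lie above the median of 94.1 kb (dashed), from 151.1 kb for Lyz2 to 719.6 kb for Ptprc. Long stretches cover more sequence, so a fixed window tends to fall in one longer than the median.

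The scores of the 6 peaks ran from 72.87 to 200.79 with a median of 96.9, against a median of 112.02 and quartiles of 82.29 and 161.17 for the other 7307 peaks. Of the 6, 3 scored above the median of the others (Cd68, the second Spi1 peak and Cd14), and the remaining 3 (Csf1r, the first Spi1 peak and Mrc1) scored between 72.87 and 76.52. Their widths ran from 562 to 1712 bp, with 1080 bp as the median, while the median of the others was 913 bp. Among the 6 peaks, those of Cd14 and Csf1r had the fewest score units per kb of width, 68.5 and 63.4, while the other 4 had 119.7 to 135.3. Values per kb were not computed for the other 7307 peaks. The 75 flanking peaks had scores of up to 428.42 with 110.05 as the median, and 10 of them scored above the Cd68 peak. None of the 6 had a neighbour under 1 kb away. With 6 peaks these figures are a description, and no test was attached to them.

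**Figure D4:**
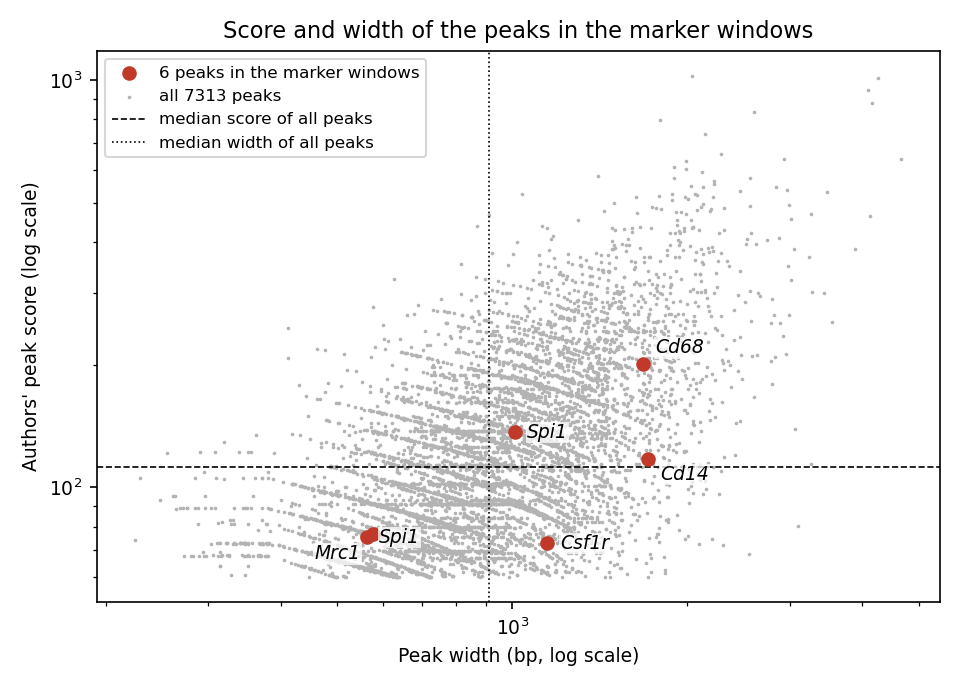
Width in bp and authors' score (both on log axes) of the 6 peaks in the marker windows (red) and of all 7313 peaks (grey), with dashed and dotted lines at the median score (112.02) and median width (913 bp) of all peaks. The Cd68 peak is the highest of the 6 at 200.79, and 3 peaks (Csf1r, the first Spi1 peak and Mrc1) lie near the lower edge of the scores.

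RefSeq promoter sequences, 250 bases before to 50 after a transcript start, were matched by symbol for 6 of the 9 genes. They are given in build GRCm38.p6, in which positions do not correspond to the mm9 positions of the peaks, so whether a peak covers a promoter was not determined. The sequences of Mrc1 and Cd68 are shown, since these are the matched genes whose windows held a peak. They are printed 5′ to 3′ on the strand of the gene, with capitals marking GAGGAAG or its reverse complement. This PU.1-type ETS sequence is longer than the core GAGGAA.
Mrc1 (GRCm38.p6 chr2:14229164-14229463, plus strand): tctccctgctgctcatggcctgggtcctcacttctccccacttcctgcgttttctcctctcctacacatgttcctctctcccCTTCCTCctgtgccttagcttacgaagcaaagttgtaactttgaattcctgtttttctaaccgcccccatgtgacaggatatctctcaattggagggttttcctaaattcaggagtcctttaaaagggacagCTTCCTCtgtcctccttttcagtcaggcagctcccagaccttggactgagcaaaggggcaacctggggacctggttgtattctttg
Cd68 (GRCm38.p6 chr11:69666121-69666420, minus strand): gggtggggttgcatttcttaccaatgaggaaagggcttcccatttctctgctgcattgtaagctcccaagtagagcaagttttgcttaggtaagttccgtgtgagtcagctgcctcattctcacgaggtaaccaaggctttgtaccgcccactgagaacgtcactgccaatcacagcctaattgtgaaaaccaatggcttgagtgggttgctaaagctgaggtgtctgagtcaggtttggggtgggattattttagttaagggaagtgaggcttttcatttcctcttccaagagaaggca
The Mrc1 promoter held 2 such matches, which begin 168 and 36 bases before the transcript start, and the Cd68 promoter held none. The Cd68 sequence does contain the shorter core GAGGAA on both strands, without the final G of the searched motif. The shorter core was not searched across promoters. Itgam, whose window was empty of peaks, also had 2 matches. The promoters of Ptprc, Cx3cr1 and Lyz2 had none. Over all 32851 promoters in the table, 13.6% held this motif on either strand. The KLF-type motif GGGNGTG, searched on both strands, was in 29.2% of all promoters and in none of the 7 promoters listed for the 6 genes. This pattern does not cover every CACCC-type element. The Cd68 sequence above contains GGGTG, the reverse complement of CACCC, which the pattern does not match. Plain CACCC and other GC-rich runs were not counted. A match is a run of letters and not a measured site, and the absence of a match covers these 300 bases only.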

How the data were processed

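Klf4 ChIP-seq was run on 1 library of eYFP+/+ Klf4delta/delta and 1 of eYFP+/+ Klf4WT/WT mesenteric arcades, and 1 deposited peak list was analysed as a single set. The deposited score of each peak is the authors' value. The submitters' processing notes name Bowtie, SAMtools and mm9, and the file's peak names point to MACS. The sources used here do not give the caller's version and threshold, the control library, pooling or read depth. Depth is therefore unknown, and intervals cover counting error only.

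The 9 loci and their mm9 windows were chosen with earlier results of these data known, and every member is named. The windows could not be checked against an mm9 annotation. The GRCm38.p6 gene table, used for names and gene order only, put all 9 genes on the window's chromosome. Starts were made 1-based. The span from first to last peak stood in for chromosome length, and 15 peaks on unplaced sequence stayed out of densities. Counting in windows was tested on simulated data with planted peaks. Alternatives were stricter scores, overlap, merging, window edges and other comparison regions. Computation used scipy 1.17.1, numpy 2.4.6 and pandas 2.3.3 under Python 3.11.15, with matplotlib 3.10.9 for figures.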

Additional observations from a re-analysis of the deposited data

How the results depend on the processing

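The 6 peaks in 5 windows became 3 peaks in 3 windows (Spi1, Cd68 and Cd14) with the upper 50% of scores and 1 peak in 1 window (Cd68) with the upper 25%. With windows widened by 25 kb at both ends there were 10 peaks, in the same 5 windows. With windows trimmed by 10% at both ends there were 5 peaks in 4 windows, the Cd68 peak being lost. Counting any overlap of at least 1 base, or merging peaks under 1 kb apart, left 6 peaks in 5 windows. Ptprc, Cx3cr1, Lyz2 and Itgam held no peak with widened windows, with any overlap or after merging. Stricter scores and trimming can only remove peaks. The density ratio, 3.44, was 1.18 against the 500 kb on each side and 2.29 to 3.76 in the other alternatives. Its interval reached below 1 with the upper 50% of scores (0.708 to 10.0), the upper 25% (0.058 to 12.8) and the flanks. The median score, 96.92, came to 136.64 among the upper 50%, to 200.79 among the upper 25% (the Cd68 peak alone) and to 76.52 in trimmed windows. It was 96.92 in the other 3. No paired analysis was possible because each genotype had 1 library and the peak list names neither. With read depth unknown, a window without a peak does not show absent binding.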
